A study of Mus musculus with 24 samples.

Results

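The first days of differentiation were examined here in mouse embryonic stem (ES) cells, with the 4 arrays of days 2 and 4 set against the 4 arrays of undifferentiated cells (day 0). These 8 arrays, of 24 in the series, were chosen by the day given in the sample labels, and a clone was used where it had a value on at least 3 arrays of each side, which held for 5968 of the 15247 clones listed. On every array, cDNA from a female ES cell line was hybridised together with cDNA from a male line taken at the same day, and the value of a clone is the log2 female:male ratio (M value) with the array's median over its clones subtracted. Replicates E and F are of day 2, G and H of day 4, and A, B, C and D of day 0. Differentiation was induced by moving the cells to nonadherent dishes without leukaemia inhibitory factor (LIF), and day 0 cells had not been moved. The labels give sex, day and dye. The growth protocol lists several lines without assigning them. PGK12.1, a hybrid between mouse strains, is taken here as the female line and CCE/R as the male one, because the paper's replicate counts for this pair match the arrays of each day. Each sex is thus represented by a single line, and sex and line cannot be told apart. The design text calls the replicates biological.

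LIF holds mouse ES cells in the undifferentiated state, and cells that lose it aggregate in suspension, leave pluripotency and start towards the germ layers. Female ES cells are known for carrying both X chromosomes in an active state, and for silencing one of them, through Xist RNA, as they differentiate. A female:male ratio above 0 on the log2 scale means more RNA of a clone in the female cells, relative to the array's median. A ratio that stays level while cells differentiate means that the RNA changed alike in both lines or in neither. The arrays were printed from a library of mouse cDNA clones. Clone names come without gene names, and 0 of 15247 clone names matched the gene table used here, so X-linked clones, pluripotency genes and markers of the germ layers were not separated, and the labelled cell type was not checked against markers. The clones are described by their values, and at most 2 in each direction are given by name.

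The arrays of days 2 and 4 had values for 5960 to 9593 clones and those of day 0 for 5660 to 10624. Spot intensities behind the ratios were not analysed here, and the small number of arrays limits the precision. Female cDNA was labelled with Cy5 on 7 of the 8 arrays and with Cy3 on replicate A of day 0. All 28 pairs of arrays had a positive Pearson correlation across clones, from 0.080 to 0.68, and the 3 pairs of day 0 arrays with opposite dyes had 0.37 to 0.58, so the 8 arrays were read as running the same way. That this way is female over male rests on the definition of the M value in the paper. With the sign turned on every array, higher and lower would change places. Arrays of days 2 and 4 correlated among themselves at 0.36 to 0.68 (6 pairs) and day 0 arrays at 0.37 to 0.58 (6 pairs). Within days 2 and 4, pairs of different days had 0.61 and 0.68 where their labels agreed on mentioning removal of spots by hand. Where the labels differed they had 0.36 and 0.49, and pairs of the same day had 0.61 and 0.62. Between the sides, medians were 0.389 with agreeing and 0.393 with differing labels. The highest pair of all, at 0.68, was replicate E of day 2 with replicate B of day 0. Where both arrays carried the female sample in Cy5, those of day 2 correlated with those of day 0 at 0.38 to 0.68 (6 pairs, median 0.49) and day 4 arrays at 0.21 to 0.46 (6 pairs, median 0.30). The lowest Pearson value of all, 0.080, was between replicate G of day 4 and replicate A of day 0. By rank (Spearman correlation) that pair had -0.044, the only value below 0 among the 28 pairs. All were taken over clones, which do not count as replicates, and none was tested.

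The pooled comparison asked which clones had another female:male ratio at the onset of differentiation than before it. Of 5968 clones, 4 rose at days 2 and 4 (0.067% of those tested) and 0 fell (0%), at an adjusted p under 0.05 from limma. At an unadjusted p under 0.05 there were 927 clones (15.5%), 591 higher and 336 lower. In whole cultures, a higher ratio can come from more RNA per cell or from more cells that hold the RNA, in one line or from less in the other, and these cannot be told apart here.

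Clone H3099h02 had log2 female:male ratios of 2.05 and 1.67 at day 2 and 1.67 and 2.28 at day 4, against 0.11, -0.24, -0.07 and -0.14 at day 0. It was 3.78-fold higher in female than in male cells at days 2 and 4 and near equal in both at day 0. The change was 2.00 on the log2 scale (standard error 0.19, adjusted p = 0.00235 from limma), and 1.55 lay between the lowest array of days 2 and 4 and the highest array of day 0, the widest gap of any clone measured on all 8 arrays. Clone H3062e08 had ratios of 1.58 and 1.32 at day 2 and 1.29 and 1.67 at day 4, against -0.14, -0.40, -0.55 and -1.01 at day 0. All 4 arrays of days 2 and 4 lay far above 0 and all 4 of day 0 below it. The change was 1.99 (standard error 0.21, adjusted p = 0.00319 from limma), and the level was above 0 at days 2 and 4 (adjusted p = 0.000167 from limma) and below 0 at day 0 (adjusted p = 0.0319).

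The other 2 clones that rose are not given by name. One had ratios of 0.81 and 1.20 at day 2 and 1.79 and 1.77 at day 4, against -0.15, -0.59, -0.31 and -0.50 at day 0 (change 1.78, standard error 0.24, adjusted p = 0.0167 from limma). The other had 1.23 and 1.51 at day 2 and 2.04 and 1.60 at day 4, against -0.10, 0.04, 0.18 and -0.46 at day 0 (change 1.68, standard error 0.22, adjusted p = 0.0155 from limma). In both, the day 4 arrays lay above the day 2 arrays. For the first of them the difference of day 4 over day 2 was 0.77 and for the second 0.45, and neither passed the test (adjusted p = 0.518 and 0.732 from limma).

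No clone fell in the pooled comparison. The 2 clones with the smallest p among those that were lower on every array were H3155g11 and H3024e11. Clone H3155g11 had ratios of -0.85 and -0.99 at day 2 and -0.77 and -1.02 at day 4, against 0.07, -0.25, 0.27 and 0.12 at day 0, a difference of -0.96 (standard error 0.17, adjusted p = 0.0634 from limma). Clone H3024e11 had ratios of -1.22 and -1.45 at day 2 and -1.20 and -0.92 at day 4, against -0.08, 0.09, -0.25 and -0.44 at day 0, a difference of -1.03 (standard error 0.19, adjusted p = 0.0634 from limma). The arrays of the 2 sides do not overlap for either, yet neither passed the threshold over all clones tested, except among the 4337 clones with a value on every array, where both had an adjusted p of 0.045.

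**Figure D1:**
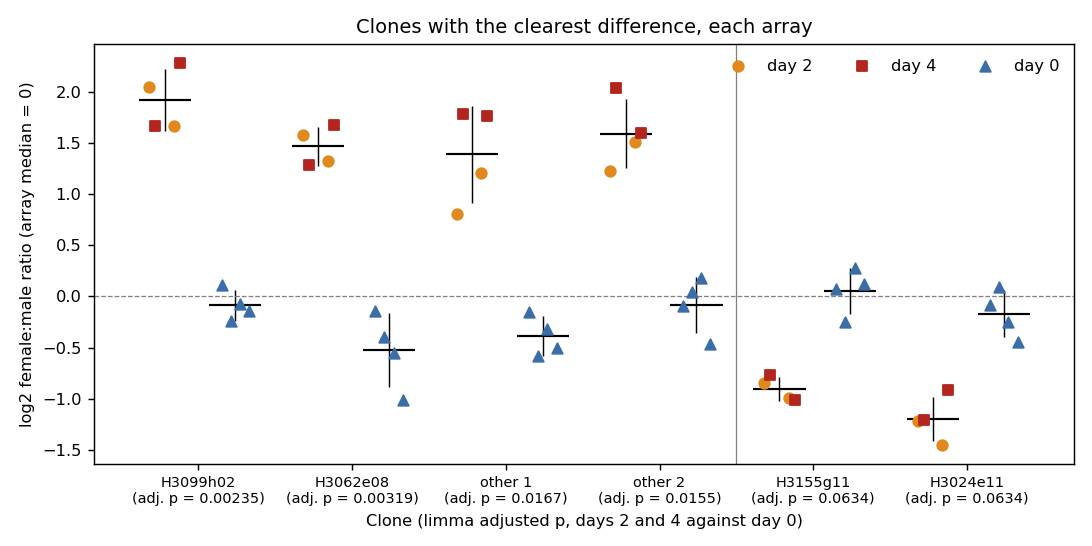
Log2 female:male ratio (vertical axis, array median set to 0) of 6 clones on the 4 arrays of days 2 and 4 (left of each pair: circles day 2, squares day 4) and the 4 arrays of day 0 (right, triangles), with mean and SD. The 4 clones left of the vertical line rose, to means of 1.39 to 1.92 at days 2 and 4 against -0.52 to -0.08 at day 0; the 2 on the right did not pass the test.

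The count of 4 moved with the arrays and the model. It was 17 (12 higher and 5 lower) without replicate E of day 2, and 2 without replicate F of day 2, replicate H of day 4, replicate A of day 0 or replicate D of day 0. H3099h02 and H3062e08 had an adjusted p under 0.05 with each of the 8 arrays left out (highest 0.0185). H3099h02 did not pass within the arrays with mention of spot removal by hand (adjusted p = 0.0507 from limma), nor H3062e08 with values turned by the dyes (adjusted p = 0.0503 from limma). In a fit of all 20 ES cell arrays neither passed (adjusted p = 0.106 and 0.139 from limma), while 5 clones passed there, 2 of them among the 4. The labels mention the removal of abnormal spots by hand for replicates F, G and D and not for the others. With that difference as a covariate 4 clones passed, 3 of them the same; within the 3 arrays with the mention 53 passed, with 1 array of day 0 and no replicate of it, and within the other 5 arrays 2 passed.

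On the later arrays, which had no part in choosing them, the mean ratio of each of the 4 clones lay below its means at days 2 and 4, at every day. H3099h02 had a mean ratio of 0.38 at day 7 (n = 2 arrays) and 0.41 at day 12 (n = 3), then 1.17 on the 2 arrays of day 15 and -0.40 on the 5 of day 21. H3062e08 averaged -0.23 at day 7 and 0.35 at day 12, then 0.58 on the day 15 and -0.67 on the day 21 arrays. At day 7, the 4 clones had means between -0.39 and 0.38, and every day 7 value of each clone was below its lowest value at day 4. The day 21 arrays disagreed among themselves, with H3099h02 at 1.10 on replicate P and -1.68 on replicate S. Female cDNA carried Cy3 on both arrays of day 15 and on replicate P, and Cy5 on the other arrays after day 4, and the direction of those Cy3 arrays was not checked. These are values of 4 selected clones, and the drop from a selected height was not tested.

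**Figure D2:**
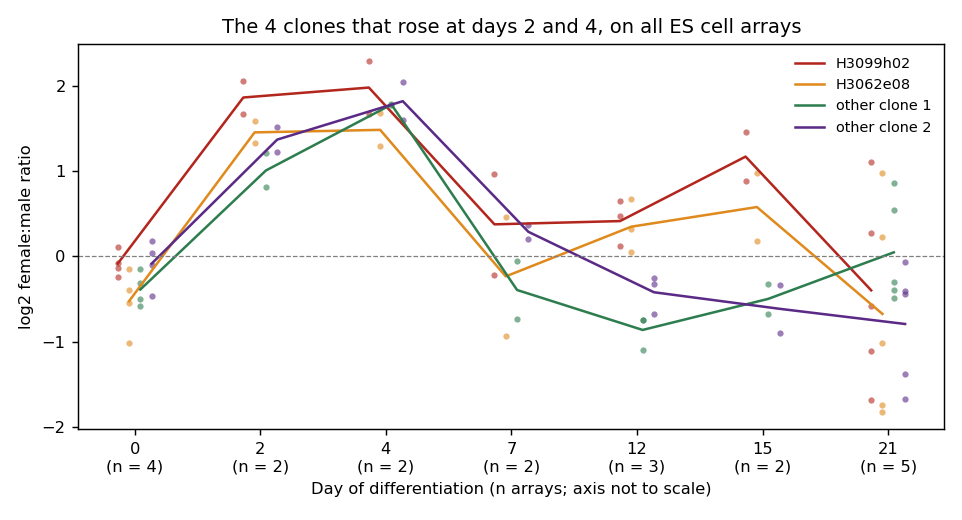
Log2 female:male ratio (vertical axis) of the 4 clones that rose at days 2 and 4, on all 20 ES cell arrays by day of differentiation (horizontal axis, evenly spaced). Points are arrays and lines join the means of a day; means at day 7 lie between -0.39 and 0.38, below those of days 2 and 4.

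Beyond these clones, the change was broader than its error but seldom large. Over all 5968 clones the pooled change had a median of 0.04 and a median absolute deviation, scaled to the SD of a normal distribution, of 0.35, against a median standard error of 0.22. A change of more than 2-fold was measured for 81 clones in the direction of female cells and for 62 in that of male cells. Of 4337 clones with values on all 8 arrays, 395 (9.11%) had no overlap between the sides, 261 with all arrays of days 2 and 4 above all those of day 0 (6.02%) and 134 with all below (3.09%). The gap between the sides was more than 0.5 on the log2 scale for 15 of the 261 and for 2 of the 134. Their median changes were 0.60 and -0.53.

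Taken apart, the days gave different counts. Day 2 against day 0 gave 0 clones (0%) at an adjusted p under 0.05 from limma, with 326 higher and 188 lower at an unadjusted p under 0.05 (8.61% of clones). The smallest adjusted p at day 2 was 0.0577, that of H3099h02, whose change was 1.94 (standard error 0.24). Day 4 against day 0 gave 63 clones (1.06%), of which 52 rose (0.871%) and 11 fell (0.184%), with 704 higher and 473 lower at an unadjusted p under 0.05 (19.7%). The change at day 4 was more than 2-fold higher for 199 clones and more than 2-fold lower for 141, against 74 and 67 at day 2. Its median absolute deviation over all clones was 0.47 at day 4 and 0.31 at day 2, with a median standard error of 0.26 at both. Day 4 set directly against day 2 gave 0 clones (0%) from limma and 484 at an unadjusted p under 0.05 (8.11%), with a smallest adjusted p of 0.22. A difference between the days was therefore not shown for any single clone. Both comparisons use the same day 0 arrays, and each rests on 2 arrays of its day.

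The 52 clones that rose at day 4 did so by 1.03 to 2.17 on the log2 scale (median 1.47), and the 11 that fell by 1.07 to 3.02 (median change -1.63). All 4 clones of the pooled comparison are among the 52. Of the 52, 27 had less and 2 had more RNA in female cells at day 0 (adjusted p under 0.05, limma), though the day 0 arrays took part in choosing them. Of all 5968 clones tested, 10.5% had less and 8.24% had more at day 0 by the same test. Their median ratio on an array was 0.75 and 0.79 at day 4, against -0.73 to -0.55 at day 0, which the choice of the clones fixes. On the day 2 arrays it was -0.02 and -0.12, between the other days. The day 2 values are not in the difference that was tested, but they enter its estimate of the spread, so they are not independent of the choice. The change at day 2 was positive for 49 of the 52, with a median of 0.62, and smaller than at day 4 for all 52. Choosing clones by a large change at day 4 favours that order of the days. Over all clones tested, the median change at day 2 was 0.05. The 11 clones that fell had medians of 0.40 to 0.53 on the day 0 arrays, 0.18 and -0.01 on those of day 2, and -0.65 and -0.96 on those of day 4. For 10 of the 11 the change at day 2 was negative. The day 2 and day 4 changes share the day 0 arrays, so their signs are not independent.

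**Figure D3:**
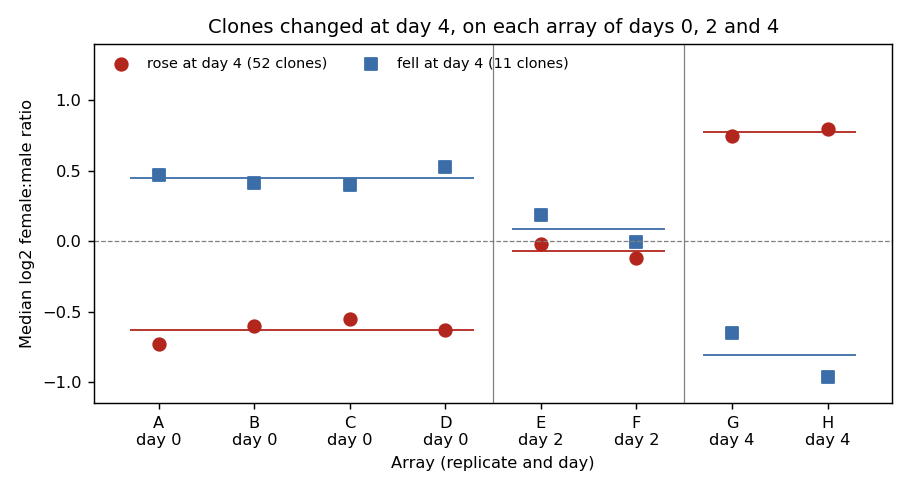
Median log2 female:male ratio (vertical axis) of the 52 clones that rose (circles) and the 11 that fell (squares) at day 4, on each array of days 0, 2 and 4; horizontal lines are means of a day. The day 2 arrays, which entered the choice of clones only through the estimate of the spread, lie between the others, at -0.12 and -0.02 for the 52 clones.

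At later days the 52 clones had median ratios of -0.19 at day 7 and 0.16 at day 12, then -0.14 on day 15 and -0.28 on day 21, against 0.75 at day 4 and -0.66 at day 0. On day 21 the median of all clones tested was itself -0.15, and the arrays of day 15 differed in sign for the 52, with medians of -0.31 on replicate N and 0.10 on replicate O. At day 4, 49 of the 52 were above 0 (51.3% of all clones), and at day 7 it was 20 of 52 (51.4% of all clones). The 11 clones that fell had medians of 0.16 at day 7 and -0.29 at day 12, then 0.34 on day 15 and -0.12 on day 21, against -0.86 at day 4 and 0.38 at day 0. Here too the arrays of day 15 differed in sign, with 0.80 on replicate N and -0.43 on replicate O.

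Replicates E and F of day 2 enter the day 4 comparison only through the estimate of the spread, and leaving out either gives the same fit. The count at day 4 depended on single arrays. It was 30 without replicate E or F of day 2, 20 without replicate G and 0 without replicate H of day 4 (828 at an unadjusted p under 0.05 from limma), and, of the day 0 arrays, 13 without replicate A, 11 without B, 97 without C and 26 without D. With the label description as a covariate it was 48, of which 40 were among the 63, and within the arrays without mention of removal by hand 37, of which 18 were; with 1 array per day, no such test could be fitted to the others. The 63 clones came from 48 of the 159 source plates of the library. A single plate held 6 of them, 5 that rose and 1 that fell, of 76 clones tested on it, and its median change at day 4 was -0.19. Plates accounted for 6.76% of the variance of the day 4 change, and 33 clones passed, 31 of them among the 63, with the median of each plate subtracted.

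The female:male difference was also tested on each side by itself. At days 2 and 4, 1263 of 5968 clones differed between female and male cells (21.2%), 727 higher (12.2%) and 536 lower (8.98%) in female cells, and at day 0 it was 1121 (18.8%), 492 higher (8.24%) and 629 lower (10.5%), by limma with an adjusted p under 0.05. At an unadjusted p under 0.05 it was 2182 (36.6%) at days 2 and 4 and 2034 (34.1%) at day 0. All arrays of days 2 and 4 had female cDNA in Cy5, so sex and dye cannot be told apart on them alone. With dye as a covariate, 166 clones (129 higher and 37 lower) differed at days 2 and 4 and 544 (248 higher and 296 lower) at day 0. That dye term rests on replicate A of day 0, the only array in Cy3. Turning values by the dyes sets replicate A against the other arrays of day 0. The count was then 381 at days 2 and 4 and 0 at day 0 (533 at an unadjusted p under 0.05 from limma). In the fit without dye, the median size of the differences past the threshold was 0.66 on the log2 scale at days 2 and 4 and 0.67 at day 0. Taken alone, with 2 arrays each, day 2 gave 482 clones (288 higher and 194 lower) and day 4 gave 484 (310 higher and 174 lower). With arrays centred on the tested clones the split was 705 higher and 551 lower at days 2 and 4, and 558 higher and 580 lower at day 0. The count at days 2 and 4 was 640 without replicate F of day 2, 740 and 765 without replicates G and H of day 4, and that at day 0 was 487, 619 and 740 without replicates B, C and D of day 0.

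The ratios of the sides come from different arrays, but both lists come from a single fit that shares its estimate of the spread, so they are not independent. Of the clones higher in female cells, 306 were on both lists (42.1% of the list of days 2 and 4 and 62.2% of that of day 0), and of the clones lower in female cells, 213 were on both (39.7% and 33.9%). Clone H3062e08 and 1 other were higher in female cells at days 2 and 4 and lower at day 0, and 0 clones were the other way round. Mean ratios of the sides had a Pearson correlation of 0.61 across the 5968 clones, and 68% of clones had the same sign on both, 4061 in number. The sides share the cell lines, the library of clones and, on 7 of the 8 arrays, the dyes. Replicate A of day 0, with opposite dyes, correlated with the arrays of day 2 at 0.40 and 0.34 and with those of day 4 at 0.080 and 0.16.

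**Figure D4:**
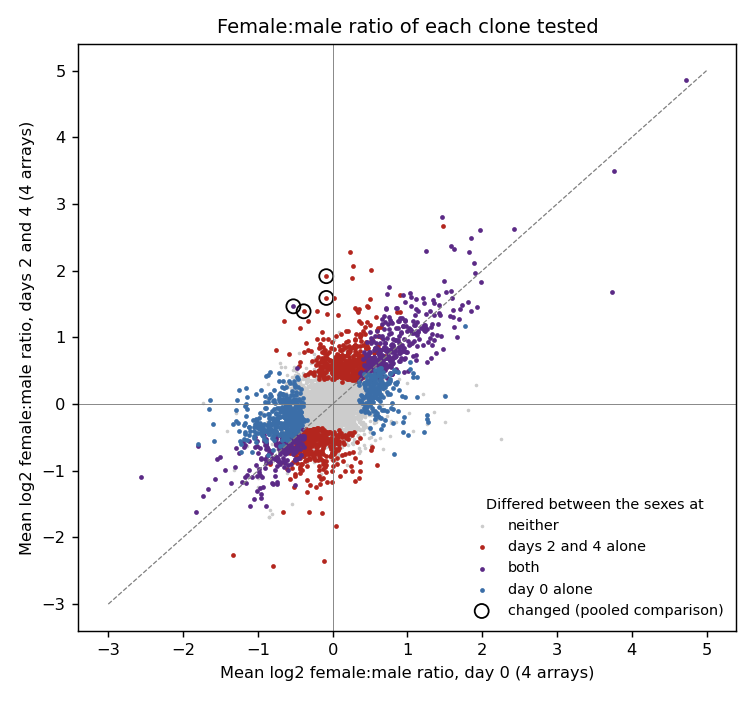
Mean log2 female:male ratio of each of 5968 clones at days 2 and 4 (vertical axis) against day 0 (horizontal axis), coloured by where it differed between the sexes (limma, adjusted p under 0.05); the dashed line marks equal ratios and open circles the 4 clones changed. Of the clones that differed at both, 306 had more and 213 less RNA in female cells on both sides, and 2 were higher at days 2 and 4 and lower at day 0.

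Clones that favoured female cells at day 0 had a median nearer to their day 0 value at days 2 and 4 than those that favoured male cells. The 492 clones with more RNA in female cells at day 0 had a median ratio of 0.62 at days 2 and 4, against 0.70 at day 0, and 452 (91.9%) were still above 0. The 629 clones lower in female cells at day 0 had a median of -0.35 at days 2 and 4, against -0.65 at day 0, and 545 (86.6%) were still below 0. The median at days 2 and 4 was thus 89.4% of that at day 0 for the first list and 54.3% for the second. On single arrays, the first list had medians of 0.63 and 0.69 at day 2 and 0.51 and 0.51 at day 4, and the second -0.42 and -0.46 at day 2 and -0.30 and -0.23 at day 4. For both lists, both day 4 arrays lay nearer to 0 than both day 2 arrays. Over all clones tested, 51% were above 0 at days 2 and 4. Both lists were chosen by their day 0 values, so the day 0 medians are fixed by that choice, and the arrays of days 2 and 4 entered it through the estimate of the spread. A choice by large day 0 values favours medians nearer to 0 on the other arrays.

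Rebuilding the lists under 12 other settings, a step added after seeing the data, gave the same order of the lists. Their median at days 2 and 4, as a share of that at day 0, was 79.8% to 93.2% for clones higher in female cells. For clones lower it was 42.2% to 62.6%. Each setting again chose the lists by their day 0 values, so these are not separate checks of that order. With arrays centred on the tested clones these shares were 79.8% and 56.2%. None of the 12 fitted dye, and leaving out replicate A, the array in Cy3, gave 84.5% and 52.4%. Taken the other way, the 727 clones higher in female cells at days 2 and 4 had a median of 0.69 there and of 0.41 at day 0, and the 536 lower had medians of -0.63 and -0.39. Chosen this way, the clones higher in female cells were not nearer at day 0 to their own median than the clones lower. The difference between the lists was not tested.

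**Figure D5:**
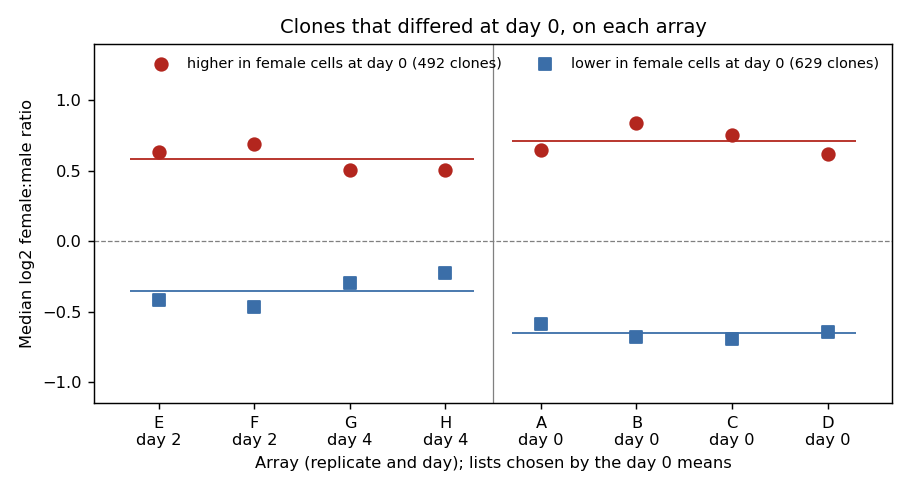
Median log2 female:male ratio (vertical axis) of clones higher (circles, 492) and lower (squares, 629) in female cells at day 0, on each array of days 2 and 4 (left) and of day 0 (right, the arrays whose means chose the lists); horizontal lines are means of 4 arrays. On the left the circles lie at 0.51 to 0.69 and the squares at -0.46 to -0.23, nearer to 0.

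The spread of ratios on an array did not differ beyond the variation between arrays. Over the 4337 clones with values on all 8 arrays, the median absolute deviation was 0.434 and 0.445 at day 2 and 0.514 and 0.408 at day 4, against 0.417, 0.505, 0.475 and 0.454 at day 0. The means were 0.450 ± 0.045 at days 2 and 4 and 0.463 ± 0.037 at day 0 (SD, n = 4 arrays each), a difference of -0.0126 (two-sided exact permutation test, p = 0.629). The smallest p that 4 against 4 arrays allow is 0.0286.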

How the data were processed

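Per the paper's methods, the authors set the scanner to balance both channels, discarded abnormal spots manually, read the spots in GenePix and used Gepas for normalisation. The deposited values are log2 ratios, 1 per clone and array. How Gepas was run, and how background, duplicate spots and missing values were handled, is not given in the sources used here, neither by the paper's main text nor by the labels. A supplement to which the paper refers for details was not used.

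The median of all clones was subtracted from each array. Clones with values on at least 3 arrays of each side entered linear models (limma 3.58.1, R 4.3.3) with 1 mean for days 2 and 4 and 1 for day 0 (pooled comparison and levels) or with a mean per day (days apart), over the 8 arrays, with moderated statistics and Benjamini-Hochberg adjustment over all clones tested. Single values per array were compared by exact permutation tests. On simulated data for the pooled comparison with 5968 clones, 200 of them changed, the fit found 57% of changes of size 1 (log2) and 91% of size 2, and called 8 unchanged clones. The simulated noise was normal and independent between arrays, and so many changed clones loosen the adjusted threshold. In the data 4 clones passed, the smallest change among them being 1.68, so the simulated shares do not carry over to the real comparison.

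Named clones were the 2 with the largest change in each direction among clones past the threshold, measured on all arrays and without overlap, filled up by the smallest p. The planned tests of X-linked clones and gene lists were not run, since clones are not paired with genes. Alternatives covered centring, dye direction, filters, scaling, covariates, moderation (robust moderation with statmod 1.5.0), array weights, the model, the arrays fitted and each array left out. Members, lists and tests were chosen with earlier results of these data known.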

Additional observations from a re-analysis of the deposited data

How the results depend on the processing

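The pooled count of 4 was 1 with values turned by the dyes, 2 with dye as a covariate, 7 with robust moderation, 8 with plate medians subtracted, 9 with arrays scaled to a common spread, 11 with separate means for the 3 days, 13 over clones on all 8 arrays, and 53 and 2 within arrays with and without mention of manual spot removal; it was 2 to 17 with an array left out. The count of 0 at day 2 was 2 with the label covariate or plate medians subtracted, 3 with centring on the tested clones or array weights, 4 over clones on all 8 arrays, 10 within arrays without the mention, and 0 to 1 with an array left out. The count of 63 at day 4 was 41 with centring on the tested clones, 0 with values turned by the dyes (378 at an unadjusted p under 0.05 from limma), 13 with the loosest filter or dye as a covariate, 39 with scaling, 37 within arrays without the mention, 101 with array weights, 11 with all 20 arrays, 33 with plate medians subtracted, and 0 to 97 with an array left out. The count of 0 between days 4 and 2 was 1 within arrays without the mention, and 0 to 1 with an array left out. Female:male differences at days 2 and 4 (1263) were 381 with values turned by the dyes, 166 with dye as a covariate, 280 within arrays without the mention, 606 with all 20 arrays, and 640 to 1330 with an array left out; at day 0 (1121) they were 0 with values turned by the dyes (533 at an unadjusted p under 0.05 from limma), 544 with dye as a covariate, 71 and 672 within arrays with and without the mention, 670 with all 20 arrays, and 487 to 1071 with an array left out. Within arrays with the mention, days 2 and 4 apart were not run, since no residual degrees of freedom remain. The cause of these moves was not tested. Turning by the dyes reverses replicate A alone, which as deposited correlated with the other arrays of day 0 at 0.37 to 0.58. Once turned, it runs against them. In the comparisons between days, dye as a covariate gave the same counts as leaving out replicate A, the only array in Cy3. These are therefore not separate checks. The named clones kept their direction in all 23 alternatives each; H3099h02 lost its call within arrays with the mention (adjusted p = 0.0507 from limma), H3062e08 with values turned by the dyes (0.0503), and both with all 20 arrays. The spread had exact permutation p of 0.514 to 0.943 in the 3 alternatives that keep all 8 arrays. With an array left out, the lowest exact permutation p was 0.229. Within arrays without the mention it was 0.3, with too few arrays for the exact test to pass the threshold. Plate subtraction was chosen after seeing the data. No paired analysis was possible because the labels give no replicate numbers that days share.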

Other observations

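On the 2 arrays of female against male inner cell mass, the part of the blastocyst from which ES cells derive, clone H3062e08 had log2 ratios of -4.43 and -1.91 and clone H3024e11 of -2.17 and -1.73, in both cases on the male side on both arrays. Clone H3099h02 had 0.22 and -0.90, and clone H3155g11 had 2.16 and -0.49. The paper describes its male inner cell mass values as technical replicates and only the female ones as biological. Agreement of the 2 arrays is therefore not replicated on the male side. On the 2 arrays of thymic lymphocytes, H3099h02 and H3062e08 have no value, and H3155g11 (0.05 and 0.13) and H3024e11 (0.26 and 0.14) were near 0. These arrays compare other cells and had no part in the tests, and no difference between them and the ES cell arrays was tested.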
